A study of Ovis aries with 9 samples.

Results

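The step from gestation day 105 (D105) to day 135 (D135) was described in the longissimus dorsi, the long muscle of the back, of Chinese merino sheep fetuses. RNA was sequenced, and the comparison rests on 6 of the study's 9 libraries, chosen by their labelled fetal age, with 3 libraries per day. The 3 libraries of day 85 (D85) entered the filter on low values, the scaling and the estimate of the spread, and gave the earlier interval that the later one was set against. Both groups are the same muscle of the same breed, the labels name no treatment, and fetal age is the labelled difference between them. Whether each library of an age is a fetus of its own is not stated in the labels, so p-values here cover only library-to-library spread, part of which may be technical.

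Skeletal muscle of the sheep fetus forms its fibres before late gestation and then grows mainly by enlarging them. As fibres mature, embryonic and neonatal contractile isoforms are replaced by adult slow and fast ones, myoblasts leave the cell cycle, and the fibre takes on the mitochondria, glycogen and calcium-handling proteins that movement and heat production after birth draw on. In whole muscle, RNA of fibres is mixed with RNA of vessels, connective tissue, nerve and blood, and fewer cells of a type cannot be told apart from less RNA per cell.

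Expression was given as FPKM, fragment counts corrected for transcript length and for the total of mapped fragments. Of 22605 loci, 13086 had at least 1 FPKM in at least 3 of the 9 libraries and were tested with limma on log2(FPKM + 1), a scale that understates changes of low genes. A locus is called higher or lower where its Benjamini-Hochberg adjusted p over all tested loci was under 0.05. As deposited, 585 loci (4.47% of those tested) were called higher at D135 and 4579 (35.0%) lower, and the median locus changed by -0.33 on the log2 scale. After division of each library by its median ratio to the average library (median-of-ratios scaling), 1389 loci (10.6%) were called higher and 911 (6.96%) lower, with a median change of 0.01. The share of higher among called loci was thus 11.3% as deposited and 60.4% after scaling, and 47.9% after quantile normalization, which called 986 loci higher (7.53%) and 1072 lower (8.19%). No locus was called in opposite directions: 584 (4.46%) were called higher and 911 (6.96%) lower in both scalings, 3668 were lower only as deposited, and 805 were higher only after scaling. Without D135 replicate 2 the counts were 454 and 3002 as deposited and 885 and 518 after scaling, and without D105 replicate 1, D105 replicate 3 or D135 replicate 1 the lower count after scaling was 555, 581 or 568. For 6.43% of the tested loci every D135 library lay above every D105 library, and for 47.7% below it. Below, "rose" and "fell" are used for genes called in both scalings, and any call made in only 1 scaling is named as such. A call is said to be lost where it was not made in 1 of the scalings with a library left out. Each list count below stands against these shares of all tested loci: 4.46% rose, 6.96% fell, 35.0% were lower as deposited and 10.6% higher after scaling.

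**Figure D1:**
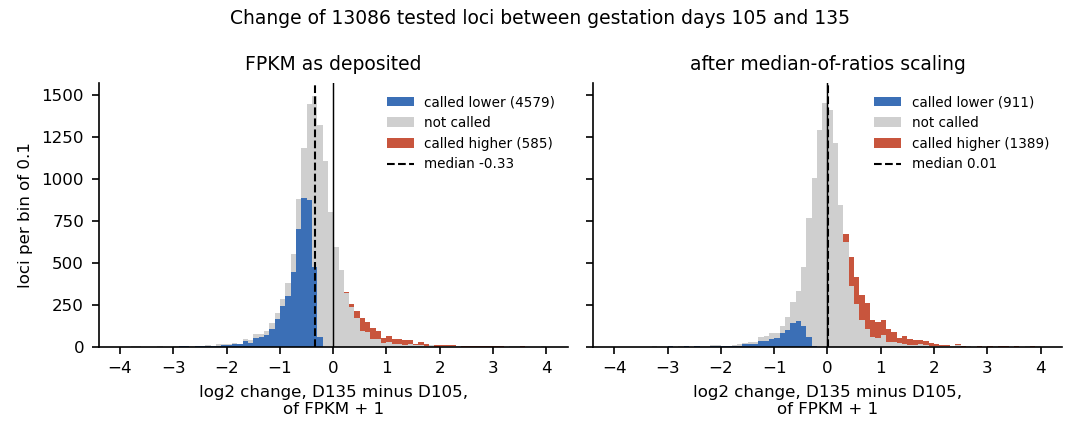
Histograms of the log2 change from D105 to D135 of all 13086 tested loci (x axis, log2 of FPKM + 1; y axis, loci per bin of 0.1), as deposited on the left and after median-of-ratios scaling on the right. The dashed line is the median, at -0.33 and 0.01, and the called loci (blue lower, red higher) turn from 4579 lower and 585 higher to 911 lower and 1389 higher; changes beyond 4 are drawn at 4.

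The libraries of the days differed in how their FPKM was spread over loci. Each D135 library had between 11283 and 11497 loci at 1 FPKM or more, against 12323 to 12509 in the D105 libraries, and 2420 to 2574 loci at 10 FPKM or more, against 3274 to 3311. The median tested locus lay at 3.50 to 3.80 FPKM at D135 and at 4.79 to 4.92 at D105. Between 49.4% and 55.4% of all FPKM at D135, and between 52.8% and 60.0% at D105, belonged to 4 unnamed loci. Of what remained, the 10 highest named genes took 14.9% to 16.3% at D135 and 8.77% to 9.98% at D105, and the ranges did not overlap. At D105 these 10 genes included MYH8, COL1A2 and COL3A1 beside MYLPF, TNNC2, TPM2 and ACTA1. At D135 CKM, GAPDH, MYL2 and TNNI2 had come in. FPKM is a share of a library, so a larger share of a few genes and a lower RNA level of the others cannot be told apart here. Within a day, libraries correlated across the tested loci at a Pearson r of 0.887 to 0.906 at D105 and 0.922 to 0.927 at D135, as a description across genes that are not independent replicates.

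Markers of the fibre itself were abundant in all 6 libraries, apart from MYH1, whose own locus was listed at 0 in each of them but D105 replicate 3 and was not tested. The 11 matched fibre markers, MYH1 included, summed to 7334 to 9578 FPKM at D105 and 16809 to 20236 at D135. Of the 10 tested, 7 rose, against 4.46% of all loci. For vessel lining, 2 of 15 tested markers were lower as deposited and 0 after scaling, with sums of 307 to 328 FPKM at D105 and 224 to 278 at D135. For fibroblasts 4 of 15 markers were lower as deposited and 0 after scaling, with sums of 2074 to 4368 FPKM and 1315 to 2226 FPKM. In both lists the share lower as deposited was under the 35.0% of all loci. The sums of smooth muscle and pericyte, leukocyte, and Schwann cell and nerve markers overlapped between the days, apart from a narrow gap for leukocytes (61.6 to 99.2 against 48.9 to 60.8 FPKM). The smooth muscle sum includes DES, desmin, which is also a fibre marker and reached 807 FPKM, whereas ACTA2, the next highest, reached 63.0 FPKM. Of the 13 tested smooth muscle and pericyte markers 4 were lower as deposited, under the 35.0% of all loci. In both scalings 1 fell and 1 rose. Of 11 matched epidermal markers, 9 were under 1 FPKM in all 6 libraries, KRT5 and KRT14 among them. D105 replicate 2 stood apart in connective tissue and fat. The type I collagen gene COL1A2 had 636, 2670.2 and 658 FPKM in D105 replicates 1, 2 and 3, and LPL, lipoprotein lipase, at 2.95, 41.1 and 4.79 FPKM. Tendon and cartilage markers summed to 26.8 to 411 FPKM at D105 and 15.5 to 148 at D135, and adipocyte markers to 16.1 to 141 FPKM and 25.3 to 109 FPKM. Of the genes named below as called as deposited, 4 lost that call without this library, namely IGF2, RPS15, RPA3 and PPARA.

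Among single genes, large rises were seen in calcium pumping, glycogen targeting and lipid storage. STRIT1, the small sarcoplasmic reticulum protein DWORF that activates the calcium pump, was at 5.47, 7.84 and 5.99 FPKM at D105 and 127, 56.7 and 83.1 FPKM at D135. Every D135 library lay several times above every D105 library (log2 change 3.54 ± 0.37 SE, limma adjusted p = 0.00099). PPP1R3C, which brings protein phosphatase 1 to glycogen, was at 14.2, 2.05 and 21.7 FPKM at D105 and 102, 122 and 91.5 FPKM at D135. The D105 values were scattered, with replicate 2 lowest, and the D135 values were close together (log2 change 3.37 ± 0.64 SE, limma adjusted p = 0.00597). TMEM159, a lipid droplet assembly factor, was at 2.38, 2.61 and 1.88 FPKM at D105 and 24.6, 23.4 and 24.9 FPKM at D135. Both groups were narrow and far apart (log2 change 2.95 ± 0.15 SE, limma adjusted p = 0.000125). ZBTB16, a zinc finger repressor known to respond to glucocorticoids, was at 0.228, 0.407 and 0.403 FPKM at D105 and 3.75, 3.46 and 2.99 FPKM at D135, so that a gene under 1 FPKM in each D105 library was well above it in each D135 library (log2 change 1.71). DUPD1, a dual specificity phosphatase of muscle, was at 1.08, 1.24 and 0.942 FPKM at D105 and 5.78, 6.9 and 8.5 FPKM at D135 (log2 change 1.94). GMPR, which turns guanosine monophosphate into inosine monophosphate, was at 8.31, 6.75 and 7.77 FPKM at D105 and 27.7, 21 and 22.5 FPKM at D135 (log2 change 1.52).

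Large falls were seen in matrix, imprinted and developmental genes. PRR32, a proline-rich protein, was at 50.6, 20.2 and 30.4 FPKM at D105 and 3.15, 0.451 and 1.19 FPKM at D135 (log2 change -3.78 ± 0.42 SE, limma adjusted p = 0.00112). POSTN, the matricellular protein periostin, was at 77, 123 and 74.6 FPKM at D105 and 5.53, 7.78 and 10.7 FPKM at D135 (log2 change -3.36). VCAN, the large proteoglycan versican, was at 50.2, 38.5 and 51.5 FPKM at D105 and 5.66, 5.01 and 6.83 FPKM at D135. These groups did not overlap, and those of VCAN had little spread (log2 change -2.80 ± 0.14 SE, limma adjusted p = 0.000125). MSC, musculin, a repressor of the myogenic lineage, was at 27.2, 13.7 and 17.1 FPKM at D105 and 3.74, 2.04 and 2.01 FPKM at D135 (log2 change -2.48). GABRE, a GABA receptor subunit, was at 20.6, 19.6 and 22 FPKM at D105 and 4.45, 4.62 and 4.9 FPKM at D135. It had the smallest adjusted p among the named genes that fell (log2 change -1.94 ± 0.08 SE, limma adjusted p = 6.33e-05). SH3PXD2B, a podosome adaptor, fell from a mean of 10.4 to 2.72 FPKM. PDLIM4, an actin-binding PDZ and LIM protein, fell from 40.7 to 9.83 FPKM, the linker histone gene H1-2 from 119 to 41.2 FPKM, and PRND, a prion protein relative, from 9.42 to 0.965 FPKM.

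Not every large change could be read as that of a gene. Of the 24 largest changes that met the naming rule, 7 were loci listed at 0 in all 3 libraries of a day, and all 7 carry a symbol that other loci in the table also carry. EIF4B, an initiation factor, was listed at 0 at D105 and at 9.002, 8.52 and 4.72 FPKM at D135 in its smaller locus, while its larger locus lay at 98.3, 98.8 and 119 FPKM at D105 and 111, 121 and 95.4 FPKM at D135. The other 6 were EMC10, HIVEP2, GATAD2B, NIPBL, FBXL7 and PLCL1, for which no change is stated. RPS15, a ribosomal protein, was at 199, 0.556 and 1.09 FPKM at D105 and 495, 594 and 486 FPKM at D135. D105 replicate 1 lay far above the other D105 libraries, and the call was lost when any of the other 5 libraries of these days was left out.

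The later interval was also set against the earlier, D85 to D105, which shares the D105 libraries. The later interval spans more days, and changes were not divided by length, so a larger later change need not be a faster one. The test of the difference called 10 loci (0.0764%) more positive and 36 (0.275%) more negative over the later interval. Without D135 replicate 2 these counts were 4 and 5, without D105 replicate 1 they were 12 and 4, without D105 replicate 3 they were 10 and 7, and without D105 replicate 2 they were 23 and 46. After median-of-ratios scaling they were 10 and 5. TMEM159 changed by 0.14 on the log2 scale before D105 and by 2.95 after it (difference 2.81 ± 0.27 SE, limma adjusted p = 0.011). After scaling its difference was also called (limma adjusted p = 0.00362). For DUPD1, GMPR and ZBTB16 the difference was called in both scalings but was lost without D105 replicate 1, D105 replicate 3 or D135 replicate 2, among others for GMPR and ZBTB16. VCAN changed by -0.51 and then -2.80 (limma adjusted p = 0.017 as deposited and 0.0617 after scaling). GABRE changed by -0.53 and then -1.94 (limma adjusted p = 0.0135 as deposited and 0.0651 after scaling). Both were also lost without D105 replicate 1, D105 replicate 3 or D135 replicate 2. SH3PXD2B, H1-2, PDLIM4, PEG10, MDK, TOP2A and CELF2 were called more negative as deposited only. For no other gene named here with its values was the difference called, apart from the smaller EIF4B locus and PIEZO2.

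**Figure D2:**
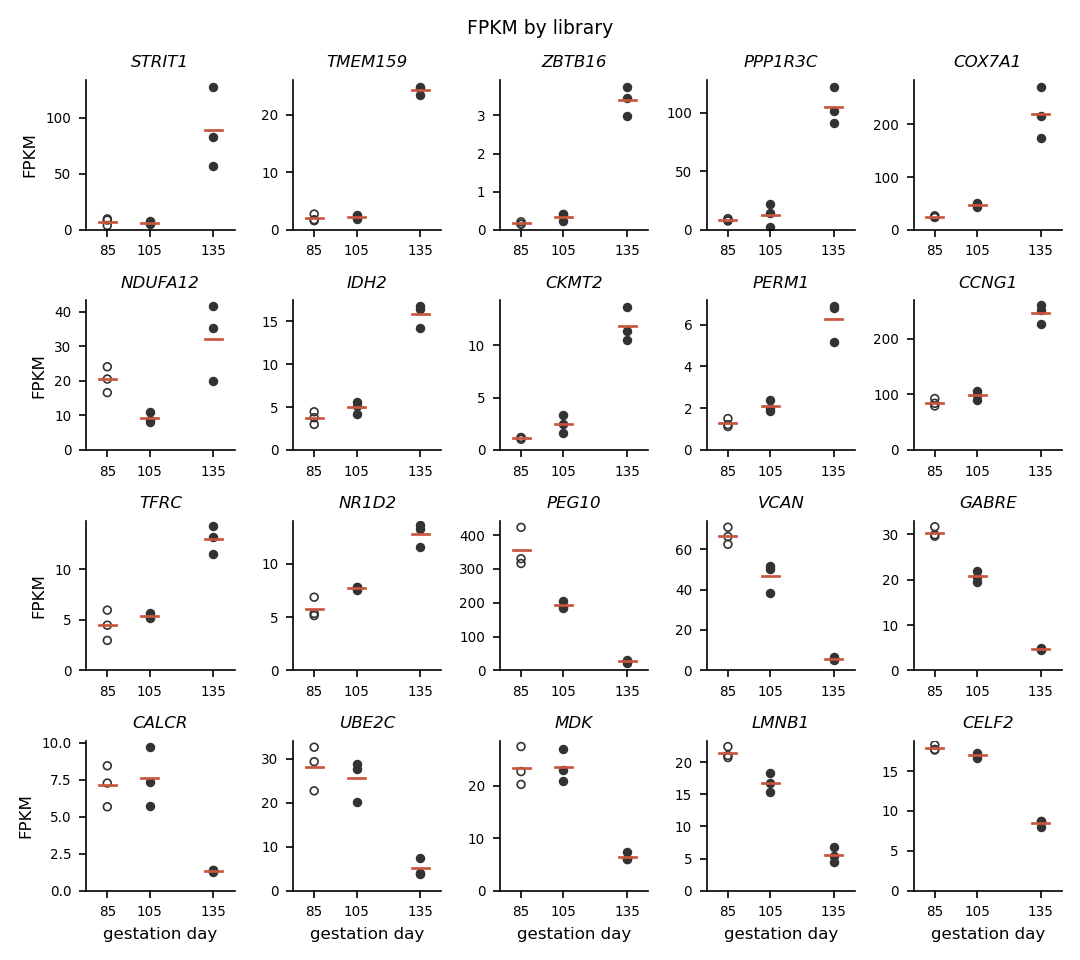
FPKM (y axis, from 0) by gestation day (x axis) for 20 genes; each point is a library, open for D85 and filled for D105 and D135, and the red line is the mean of 3 libraries. In each panel the D105 and D135 points do not overlap.

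Among contractile proteins the slow isoforms rose as a group. Of 13 slow isoforms tested, 10 rose and 0 fell, with a median log2 change of 1.42 against -0.33 for all loci (1.88 against 0.01 after scaling). TNNT1, slow troponin T, was at 66.3, 98.2 and 50.8 FPKM at D105 and 918, 369 and 651 FPKM at D135. MYL2, the slow regulatory light chain, was at 353, 507 and 252 FPKM at D105 and 3735, 1687 and 3040.4 FPKM at D135. MYH7B, a slow-type myosin heavy chain, was at 4.77, 6.01 and 4.44 FPKM at D105 and 31.4, 12.2 and 17.2 FPKM at D135. In each of these D135 replicate 2 was the lowest D135 library and replicate 1 the highest, and all D135 values were above all D105 values. The order was reversed for the adult fast myosins MYH1, MYH2 and MYH4, which share a joined locus beside the separate MYH1 locus. The joined locus was at 84.8, 205 and 128 FPKM at D105 and 636, 1319 and 1045 FPKM at D135 (log2 change 2.87 ± 0.35 SE, limma adjusted p = 0.0015). ATP2A2, the slow fibre calcium pump, rose from 52.6 ± 4.5 to 149 ± 54.5 FPKM (SD, n = 3). MB, myoglobin, was at 7.99, 38.2 and 22.2 FPKM at D105 and 277, 84.2 and 187 FPKM at D135, with D135 replicate 2 again the lowest of its day.

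Adult fast isoforms rose less uniformly. Of 13 tested, 7 rose, 1 fell and 5 were not called as deposited (median 1.03). ACTN3, a Z-disc protein that slow fibres lack, rose from 67.6 ± 25.4 to 193 ± 48.9 FPKM (SD, n = 3). CASQ1, the fast calsequestrin, rose from 267 ± 51.2 to 733 ± 98.6 FPKM (SD, n = 3), and MYLK2, skeletal myosin light chain kinase, from 34 ± 4.16 to 73 ± 21.5 FPKM (SD, n = 3). TNNI2, fast troponin I, rose from a mean of 1189.7 to 2228 FPKM. TPM2, beta-tropomyosin, which is not a member of this list, rose from 1394 to 3123 FPKM. Neither was called after quantile normalization. MYLPF, the fast regulatory light chain, and TNNC2, fast troponin C, were the highest named genes at D105. The mean of MYLPF was 3575 FPKM at D105 and 5054 at D135 without a call as deposited (limma adjusted p = 0.161), and that of TNNC2 was 2435 and 2741 FPKM (limma adjusted p = 0.475). PVALB, the calcium buffer parvalbumin, was the exception that fell, with 2.18, 4.56 and 1.3 FPKM at D105 and 0.102, 0.24 and 0.333 FPKM at D135.

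Among developmental isoforms, myosin heavy chains went down. Of 10 embryonic and neonatal genes 2 fell and 1 rose in both scalings, the joined locus of MYL6 and MYL6B, light chains of non-muscle and immature muscle myosin, from a mean of 148 to 447 FPKM. Beside contractile isoforms this list holds the receptor subunit CHRNG and the intermediate filament genes NES and VIM. MYH3, embryonic myosin, matched by its description, was at 1031, 510.2 and 653 FPKM at D105 and 22.4, 81 and 84.8 FPKM at D135. The neonatal myosin gene MYH8 had 1757, 1259.6 and 1911 FPKM at D105 and 726, 508 and 361 FPKM at D135, and was thus still abundant in each D135 library. Its call after scaling was lost without D105 replicate 1, D105 replicate 3 or D135 replicate 2. As deposited 6 genes of the list were lower, and 2 without D135 replicate 2.

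Structural proteins of the sarcomere rose with the adult isoforms. Of 27 scaffold genes 16 rose, and 23 were higher after scaling (median 0.68 as deposited and 1.13 after scaling). ACTA1, skeletal alpha-actin, was at 1316, 1775 and 933 FPKM at D105 and 4159.8, 5253 and 6464 FPKM at D135. ACTN2, the alpha-actinin of all Z-discs, was at 271, 279 and 215 FPKM at D105 and 659.6, 691 and 654 FPKM at D135. PDLIM3, which binds it, was at 25, 33.3 and 25.1 FPKM at D105 and 64.2, 72.7 and 73.1 FPKM at D135. The D135 values of ACTN2 and PDLIM3 lay close together, and no D135 value of the 3 genes was below a D105 value. CSRP3, the muscle LIM protein of the Z-disc, rose from 76.3 ± 18.6 to 186 ± 50.3 FPKM (SD, n = 3). TTN, titin, rose from 828 ± 50.6 to 1414 ± 53.9 FPKM (SD, n = 3), a call lost after quantile normalization.

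Calcium release and membrane excitability held changes in both directions. Of 21 genes of excitation-contraction coupling, 3 rose and 1 fell, while 13 were higher after scaling (median 0.35 as deposited and 0.81 after scaling). RYR3, a release channel typical of immature muscle, was at 10.4, 4.87 and 13.7 FPKM at D105 and 2.36, 2.14 and 1.42 FPKM at D135 (log2 change -1.76, limma adjusted p = 0.0082). It was the coupling gene that fell, and its call after scaling was lost without D105 replicate 1, D105 replicate 3 or any single D135 library. The number that rose was 5 without D105 replicate 3. CACNG1, a subunit of the voltage sensor, rose from a mean of 9.69 to 18.7 FPKM, and JPH1, which holds the triad membranes together, from 13.1 to 22.3 FPKM. Of 13 genes of membrane excitability 4 rose and 2 fell. Of these genes 2 rose without D105 replicate 1 or D135 replicate 1, and 1 fell without D105 replicate 1, D105 replicate 3 or any single D135 library. KCNJ2, an inward rectifier potassium channel, rose from a mean of 6.5 to 12.5 FPKM.

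Genes of the neuromuscular synapse were lower or not called as deposited. Of 14 tested, 8 were lower as deposited, against 35.0% of all loci, and 2 fell in both scalings, against 6.96%. As deposited 0 were higher (median -0.81), and after scaling 1 was, CHRNE, the adult acetylcholine receptor subunit. NCAM1, the neural cell adhesion molecule, was at 22, 14.9 and 18.7 FPKM at D105 and 6.34, 6.17 and 6.05 FPKM at D135. AGRN, the synapse organiser agrin, was at 13, 12.7 and 10.8 FPKM at D105 and 7.78, 5.97 and 5.72 FPKM at D135. The D135 values of both were below all their D105 values, but the call of AGRN after scaling was lost without any single library other than D135 replicate 1. RAPSN, the receptor-clustering protein rapsyn, was lower as deposited only (log2 change -1.04, limma adjusted p = 0.0089, and 0.0917 after scaling). LRP4, the agrin receptor, was likewise lower as deposited only (log2 change -0.88, limma adjusted p = 0.00543, and 0.0956 after scaling).

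The respiratory chain rose across its complexes. Of 37 nuclear subunits of complex I, 23 rose and 0 were lower, with a median of 0.66 as deposited and 1.11 after scaling. The numbers that rose were 4 of 4 in complex II, 6 of 9 in complex III, 7 of 12 in complex IV and 12 of 16 in ATP synthase. With each library left out in turn, 17 to 23 complex I subunits and 9 to 13 ATP synthase subunits were higher as deposited. NDUFA12, an accessory subunit of complex I, was at 11.2, 8.16 and 8.61 FPKM at D105 and 19.9, 41.7 and 35.3 FPKM at D135. SDHD, a membrane anchor of complex II, was at 45.1, 41.5 and 45.8 FPKM at D105 and 72.8, 80.4 and 76 FPKM at D135. UQCRC2, a core protein of complex III, was at 40.8, 47.8 and 44 FPKM at D105 and 105, 123 and 91.9 FPKM at D135. NDUFA12 had the largest change among the called complex I subunits (log2 change 1.64). COX7A1, the striated-muscle form of a complex IV subunit, was at 44, 50.1 and 48.1 FPKM at D105 and 216, 272 and 174 FPKM at D135. Its change was the largest of any called respiratory subunit (log2 change 2.17 ± 0.16 SE, limma adjusted p = 0.000501). COX6A2, also a muscle form, was at 115, 159.5 and 124 FPKM at D105 and 342, 322 and 307 FPKM at D135. ATP5F1B, the catalytic beta subunit of ATP synthase, was at 225, 203 and 233 FPKM at D105 and 376, 453 and 337 FPKM at D135. In all 6 of these genes the lowest D135 library was above the highest D105 library.

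In the lists of machinery that builds these complexes most genes were not called as deposited. Of 17 assembly factors, 0 were higher and 1 lower as deposited, and 7 higher after scaling, with medians of 0.06 and 0.47. Of 71 proteins of the mitochondrial ribosome, 10 rose, against 4.46% of all loci, and 27 were higher after scaling (median 0.15 as deposited). Without D105 replicate 3, D135 replicate 1 or D135 replicate 2 the number that rose was 3. Of 11 genes that copy and transcribe mitochondrial DNA, 0 rose in both scalings and 4 were lower as deposited, a share near the 35.0% of all loci, and 2 without D105 replicate 2, D105 replicate 3 or D135 replicate 2. POLRMT, the mitochondrial RNA polymerase, was at 3.25, 3.3 and 2.79 FPKM at D105 and 1.98, 1.89 and 1.53 FPKM at D135. It was lower as deposited (log2 change -0.56, limma adjusted p = 0.00942) and not called after scaling (log2 change -0.24, limma adjusted p = 0.195).

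Of 18 regulators of oxidative metabolism 3 rose, namely PERM1, ESRRA and the nuclear receptor PPARA. The call of PPARA as deposited was lost without any single library other than D135 replicate 2. PERM1, a muscle-specific regulator of mitochondrial genes, was at 1.86, 2.0 and 2.41 FPKM at D105 and 6.88, 6.8 and 5.16 FPKM at D135. ESRRA, a nuclear receptor that drives many of them, was at 2.41, 2.27 and 2.56 FPKM at D105 and 4.13, 3.76 and 3.84 FPKM at D135. Neither pair of groups overlapped (limma adjusted p = 0.00108 and 0.00997). PPARGC1A, a coactivator of the same genes, was at 1.68, 1.84 and 2.02 FPKM at D105 and 2.29, 2.23 and 2.12 FPKM at D135, higher after scaling only (limma adjusted p = 0.00921, and 0.17 as deposited). PRKAG3, a subunit of AMP kinase in fast muscle, was lower as deposited only, with 9.16, 4.92 and 8.2 FPKM at D105 and 2.89, 3.55 and 3.17 FPKM at D135.

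Enzymes of fuel oxidation rose. Of 27 genes of the tricarboxylic acid cycle and pyruvate entry, 18 rose and 0 were lower (median 0.53, or 0.97 after scaling). With each library left out in turn 14 to 18 were higher as deposited. IDH2, mitochondrial isocitrate dehydrogenase, was at 4.19, 5.54 and 5.18 FPKM at D105 and 16.8, 16.5 and 14.3 FPKM at D135. MPC2, a subunit of the carrier that brings pyruvate into mitochondria, was at 7.69, 8.86 and 8.17 FPKM at D105 and 17.2, 18.2 and 19.2 FPKM at D135. MPC1, its partner, was at 14.9, 15.7 and 16.3 FPKM at D105 and 32.3, 29.9 and 31 FPKM at D135. All 3 pairs of groups were far apart for their spread (limma adjusted p = 0.000875, 0.000837 and 0.00151), and IDH2 had the largest log2 change of its list. Of 31 genes of fatty acid uptake and oxidation, 14 rose and 1 fell, the fatty acid transporter SLC27A4, which was not called after quantile normalization. Its call after scaling was lost without D85 replicate 2 or 3, D105 replicate 1 or 3, or D135 replicate 1 or 3. The number that rose was 8 without D135 replicate 2 and 9 without D105 replicate 1. FABP3, the muscle fatty acid binding protein, was at 21.7, 27.4 and 20.1 FPKM at D105 and 52.6, 53 and 51.9 FPKM at D135. ETFDH, which passes electrons from fatty acid oxidation to the respiratory chain, was at 8.56, 8.41 and 8.15 FPKM at D105 and 19, 19.8 and 15.1 FPKM at D135. ACADVL, the first enzyme of long-chain oxidation in mitochondria, rose from 18 ± 2.91 to 37.9 ± 5.56 FPKM (SD, n = 3). CD36, a fatty acid transporter, rose from 11.7 ± 0.683 to 20.9 ± 3.96 FPKM (SD, n = 3).

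Glycolysis and the use of glycogen and phosphocreatine also rose. Of 24 glycolytic genes 12 rose and 0 fell in both scalings. The summed FPKM of the list was between 2298 to 2744 at D105 and between 5718 to 8789.6 at D135. GAPDH, the enzyme of its middle step, was at 962, 922 and 1089.5 FPKM at D105 and 2839, 4494 and 2756 FPKM at D135. PGAM2, the muscle phosphoglycerate mutase, was at 346, 245 and 368 FPKM at D105 and 627, 1124 and 905 FPKM at D135. LDHA, the muscle lactate dehydrogenase, was at 67.6, 66.6 and 72.3 FPKM at D105 and 134, 242 and 206 FPKM at D135. D135 replicate 2 was the highest library for these 3 genes, whereas it was the lowest of its day for TNNT1, MYL2 and MYH7B. Of 17 glycogen genes 7 rose. Beside PPP1R3C, the related targeting subunit PPP1R3B was at 1.2, 0.727 and 1.15 FPKM at D105 and 8.07, 4.1 and 5.21 FPKM at D135. EPM2A, the glycogen phosphatase laforin, was at 1.92, 2.3 and 2.4 FPKM at D105 and 7.06, 5.69 and 4.87 FPKM at D135. PYGM, muscle glycogen phosphorylase, rose from 155 ± 43.7 to 318 ± 30.5 FPKM (SD, n = 3). Of 12 phosphagen, adenylate and myoglobin genes 5 rose, or 3 without D105 replicate 1, D105 replicate 2 or D135 replicate 2. CKMT2, the creatine kinase of muscle mitochondria, was at 1.59, 3.37 and 2.47 FPKM at D105 and 10.5, 13.7 and 11.4 FPKM at D135 (log2 change 1.91, limma adjusted p = 0.000931). CKM, the cytosolic form, was at 946, 1062 and 1092 FPKM at D105 and 3243, 3524 and 3735 FPKM at D135 (log2 change 1.76, limma adjusted p = 0.00121).

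Amino acid, redox and iron genes held a few changes in lists of which most members were not called. Of 25 amino acid genes 5 rose and 1 fell. BCAT1, the cytosolic branched-chain aminotransferase, was at 8.98, 3.31 and 6.63 FPKM at D105 and 0.336, 0.909 and 0.472 FPKM at D135 and was the gene that fell. GOT2, the mitochondrial aspartate aminotransferase, was at 18.5, 27.6 and 23 FPKM at D105 and 88.8, 86.1 and 50.3 FPKM at D135 and rose. Of 24 antioxidant genes 3 rose, catalase (CAT) and 2 mitochondrial enzymes. The call of CAT was lost without replicate 1 or 3 of D105 or replicate 1 or 2 of D135. SOD2, the mitochondrial superoxide dismutase, was at 13.4, 16.4 and 15.9 FPKM at D105 and 35.9, 23.8 and 27.8 FPKM at D135. PRDX3, a mitochondrial peroxiredoxin, was at 13.4, 15.7 and 12.8 FPKM at D105 and 24.4, 23.4 and 23.5 FPKM at D135. Of 21 iron and haem genes 2 rose, or 4 without D135 replicate 2. TFRC, the transferrin receptor that brings in iron, was at 5.18, 5.37 and 5.66 FPKM at D105 and 14.3, 11.6 and 13.1 FPKM at D135. ALAS1, which starts haem synthesis, was at 20., 19.3 and 19.6 FPKM at D105 and 34, 28.9 and 26.9 FPKM at D135. For both genes the groups were apart, TFRC by about its own D105 level. FTL, the ferritin light chain, was lower as deposited only, at 63.1, 88.4 and 63.8 FPKM at D105 and 29.9, 37.2 and 41.1 FPKM at D135. Among globins, whose near-identical copies the counting could have split, HBB, a beta chain matched by its description, was at 15.3, 17.9 and 6.85 FPKM at D105 and 74.9, 142 and 70.4 FPKM at D135 and rose. HBA1, an alpha chain, was lower as deposited only, at 173, 275 and 133 FPKM at D105 and 57.1, 72.7 and 104 FPKM at D135. Erythroid markers summed to 257 to 446 FPKM at D105 and 199.7 to 295 at D135, and the part of blood in these changes was not tested.

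**Figure D3:**
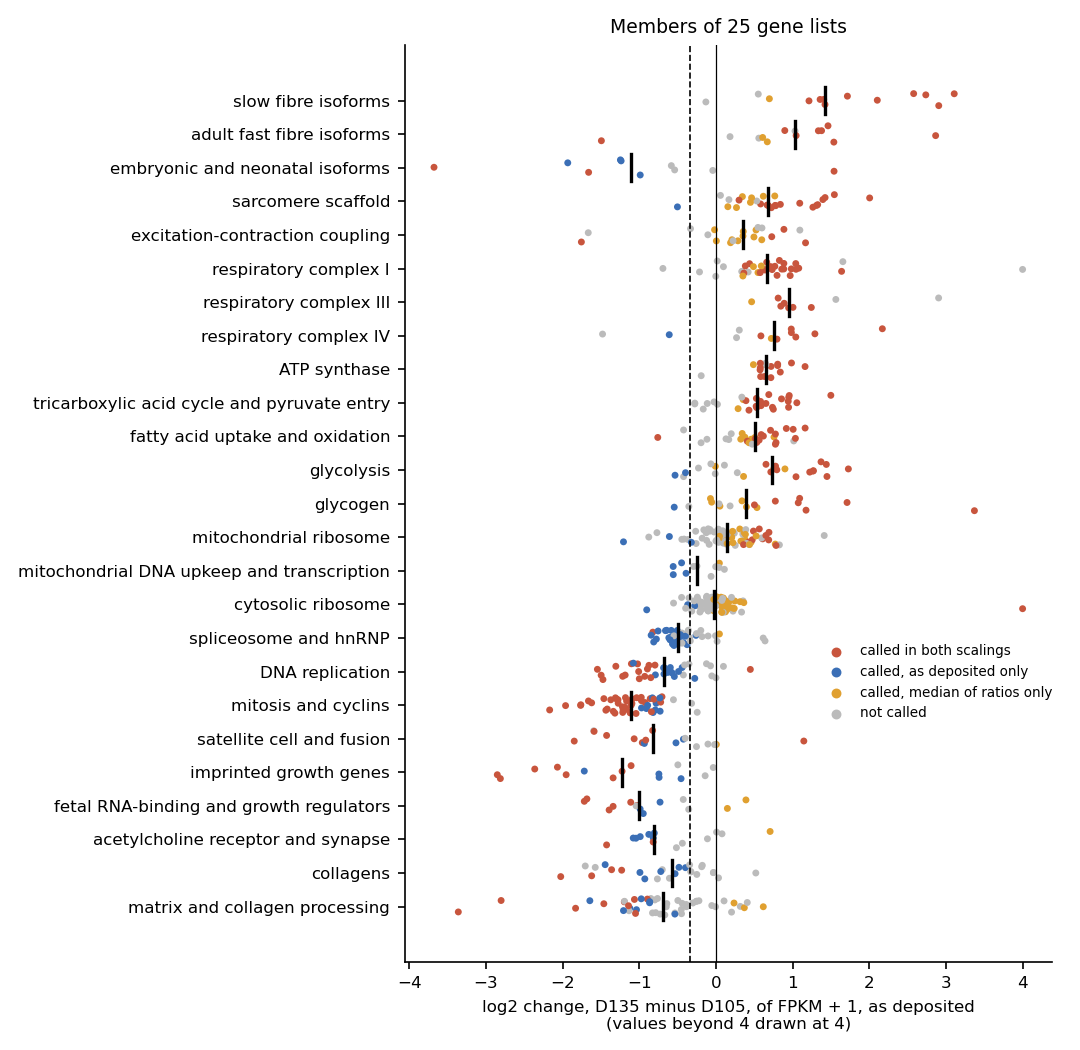
Log2 change from D105 to D135 as deposited (x axis) of every tested member of 25 gene lists (rows); colours give the calls in the 2 scalings, the black bar is the list's median, and the dashed line is the median of all loci at -0.33. The respiratory complexes, the tricarboxylic acid cycle, glycolysis and the slow isoforms have medians above 0, and the mitosis list, with a median of -1.11, lies left of the dashed line.

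Genes of cell division fell as a group. Of 49 genes of mitosis and cyclins, 37 fell in both scalings, 46 were lower as deposited and 0 higher (median -1.11, or -0.82 after scaling), against 6.96% of all loci that fell. With each library left out in turn 43 to 46 were lower as deposited. UBE2C, a ubiquitin-conjugating enzyme of mitotic exit, was at 27.7, 20.2 and 28.9 FPKM at D105 and 3.94, 3.88 and 7.32 FPKM at D135. TOP2A, the topoisomerase of dividing cells, was at 24.5, 22.5 and 25.3 FPKM at D105 and 4.38, 5.06 and 7.18 FPKM at D135. MKI67, the proliferation marker Ki-67, was at 9.59, 8.4 and 9.06 FPKM at D105 and 1.74, 1.76 and 3.19 FPKM at D135. In these 3 genes D135 replicate 3 was the highest of its day and below every D105 library. CCND2, a cyclin that drives entry into the cycle, was at 29.3, 29.1 and 24.5 FPKM at D105 and 12.3, 11.7 and 11.2 FPKM at D135. Of 37 replication genes 15 fell and 1 rose, the replication protein RPA3 (median -0.68). The call of RPA3 was lost without replicate 2 or 3 of D105 or replicate 1 or 2 of D135. TYMS, thymidylate synthase, was at 11.3, 9.3 and 8.95 FPKM at D105 and 2.24, 3.04 and 2.87 FPKM at D135. CDC6, which loads the replicative helicase, was at 4.77, 4.64 and 4.81 FPKM at D105 and 1.5, 1.48 and 1.6 FPKM at D135. MCM4, a subunit of that helicase, was at 18.1, 16.5 and 13.3 FPKM at D105 and 5.04, 5.93 and 6.55 FPKM at D135. The D85 means of UBE2C, TOP2A, TYMS and CDC6 were 28.2, 26.9, 11.7 and 5.91 FPKM, above their D105 means.

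Brakes of the cell cycle changed in both directions, with more lower than higher as deposited. Of 16 tested, 8 were lower as deposited (4 without D105 replicate 1) and 2 higher, against 35.0% and 4.47% of all loci. The median was -0.42 as deposited and -0.06 after scaling. In both scalings 2 rose, or 1 without D105 replicate 1, D105 replicate 3, D135 replicate 1 or D135 replicate 2, and 1 fell. CCNG1, cyclin G1, a p53 target, was at 90., 99.6 and 107 FPKM at D105 and 226, 252 and 260.4 FPKM at D135 (log2 change 1.31 ± 0.11 SE, limma adjusted p = 0.000625). RBL1, a pocket protein of dividing cells, was at 2.18, 2.64 and 2.37 FPKM at D105 and 0.599, 1.0 and 0.984 FPKM at D135 and was the gene that fell, a call lost after scaling without D105 replicate 2 or 3. CDKN1B, the inhibitor p27, was at 7.39, 15.1 and 7.81 FPKM at D105 and 11.4, 10.9 and 6.74 FPKM at D135, and its groups overlapped (limma adjusted p = 0.972).

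Genes of satellite cells, the stem cells of muscle, and of myoblast fusion were lower in part. Of 17 tested, 10 were lower as deposited, 7 fell in both scalings (4 without D135 replicate 2) and 1 rose, the syndecan SDC4, whose call was lost without replicate 1 or 3 of D105 or replicate 2 or 3 of D135. CALCR, the calcitonin receptor of quiescent satellite cells, was at 7.33, 5.73 and 9.69 FPKM at D105 and 1.26, 1.37 and 1.4 FPKM at D135. CDH15, M-cadherin, was at 13, 5.96 and 15.1 FPKM at D105 and 2.87, 3.17 and 2.59 FPKM at D135. PAX7, the satellite cell transcription factor, was at 2.19, 1.53 and 2.19 FPKM at D105 and 0.588, 0.494 and 0.471 FPKM at D135. Each D105 value of these 3 genes was above each D135 value, and PAX7 was under 1 FPKM in every D135 library. MEGF10, a receptor of satellite cells, was at 12.8, 11 and 12.7 FPKM at D105 and 4.2, 5.83 and 5.9 FPKM at D135. After scaling the call of CDH15 was lost without D105 replicate 1, D105 replicate 3 or any single D135 library, and that of MEGF10 without any single library other than D85 replicate 2. Of 25 myogenic and fibre type transcription factors PAX7 fell and SIX2 rose in both scalings, but the call of SIX2 as deposited was lost without D85 replicate 2 or any library of the later days other than D105 replicate 2. MYOG, myogenin, was at 11.1, 6.04 and 17.7 FPKM at D105 and 8.94, 9.47 and 7.09 FPKM at D135. MYF6, a myogenic factor of fibres, was at 2.49, 1.72 and 2.71 FPKM at D105 and 3.88, 3.13 and 1.82 FPKM at D135. Both pairs of groups overlapped (limma adjusted p = 0.467 and 0.466).

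Imprinted and other fetal growth genes fell. Of 15 imprinted growth genes 8 fell and 0 were higher as deposited (median -1.22, or -0.81 after scaling). PEG10, derived from a retrotransposon, was at 206, 185 and 188 FPKM at D105 and 31.8, 21.8 and 24.9 FPKM at D135. NNAT, neuronatin, was at 30.5, 14.5 and 26 FPKM at D105 and 1.65, 3.41 and 2.26 FPKM at D135. MEST, a hydrolase of the endoplasmic reticulum, was at 20.8, 21 and 11.2 FPKM at D105 and 2.48, 3.11 and 2.0 FPKM at D135. None of these groups overlapped. DLK1, a Notch-related inhibitor of differentiation, was at 44.2, 78 and 41.1 FPKM at D105 and 12.7, 12.7 and 12.8 FPKM at D135, with nearly equal D135 values. IGF2, the fetal insulin-like growth factor, was at 52.6, 69.7 and 27 FPKM at D105 and 13.5, 13.3 and 13.3 FPKM at D135. Its call as deposited (limma adjusted p = 0.0191) was not made after scaling (limma adjusted p = 0.0768) and was lost without D105 replicate 1, D105 replicate 2 or D135 replicate 2. Of 15 genes of the insulin-like growth factor system 2 fell, IGFBP2 and the joined locus of IGF2R. IGFBP2, a binding protein, was at 15.1, 17.9 and 16.4 FPKM at D105 and 2.76, 3.81 and 5.08 FPKM at D135.

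Of 14 fetal RNA-binding proteins and growth regulators 6 fell. MDK, the growth factor midkine, was at 27.1, 20.8 and 23 FPKM at D105 and 7.44, 5.94 and 6.06 FPKM at D135. STMN1, the microtubule regulator stathmin, was at 50.3, 42.8 and 49.8 FPKM at D105 and 8.61, 16.8 and 19.2 FPKM at D135. PLAGL1, a zinc finger growth regulator, was at 16.1, 18.9 and 15.8 FPKM at D105 and 5.92, 6.63 and 5.65 FPKM at D135. All D135 libraries were below all D105 libraries, and the call of STMN1 after scaling was lost without D105 replicate 1 or 3. IGF2BP2, which binds mRNAs of fetal growth, was at 9.06, 7.3 and 8.46 FPKM at D105 and 3.41, 3.85 and 3.33 FPKM at D135.

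Fewer members were called in the signalling lists. Of 29 genes of myostatin, TGF-beta and BMP signalling 8 were lower as deposited (5 without D135 replicate 2), under the 35.0% of all loci, and 0 after scaling. The median of this list, -0.33 as deposited, was near that of all loci. MSTN, myostatin, which limits muscle mass, was at 17.3, 10.8 and 20.3 FPKM at D105 and 6.81, 5.26 and 3.64 FPKM at D135 (limma adjusted p = 0.00912 as deposited and 0.0579 after scaling). Of 34 WNT and Notch genes 4 fell (2 without D105 replicate 2, D135 replicate 1 or D135 replicate 2) and 1 rose, the WNT antagonist DKK2, whose call was lost without replicate 1 or 3 of either later day. Without D135 replicate 2 the number that rose was 2. SFRP1, a secreted WNT antagonist, was at 6.79, 9.2 and 7.19 FPKM at D105 and 3.0, 2.6 and 2.57 FPKM at D135. AXIN2, a WNT target, was at 2.12, 2.55 and 2.21 FPKM at D105 and 0.777, 0.799 and 0.93 FPKM at D135. NOTCH3, a receptor of pericytes and satellite cells, was at 15.3, 13.3 and 13 FPKM at D105 and 6.61, 5.39 and 6.68 FPKM at D135. All 3 of these fell without overlap, but the call of AXIN2 after scaling was lost without D105 replicate 2 or 3 or D135 replicate 1 or 2.

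Of 20 genes known to respond to glucocorticoids, 4 rose and 1 fell, and 2 rose without D105 replicate 1 or D135 replicate 1. Beside ZBTB16, TSC22D3, the leucine zipper protein GILZ, was at 6.88, 7.73 and 7.93 FPKM at D105 and 11.6, 13.7 and 17.1 FPKM at D135. HSD11B2, which inactivates cortisol, was at 1.46, 0.934 and 1.17 FPKM at D105 and 0.544, 0.203 and 0.259 FPKM at D135 and fell, but was not called after quantile normalization. Its call after scaling was lost without any single D85 library, D105 replicate 1 or 3, or D135 replicate 2 or 3. FKBP5, a classical target, was at 0.655, 0.514 and 1.08 FPKM at D105 and 0.785, 0.727 and 0.773 FPKM at D135, and its groups overlapped (limma adjusted p = 0.913 as deposited and 0.292 after scaling). Of 15 clock genes 3 rose. NR1D2, a repressor of the clock, was at 7.5, 7.83 and 7.84 FPKM at D105 and 13.6, 11.5 and 13.3 FPKM at D135. The hour of sampling is not in the labels, so the time of day and the age cannot be told apart for these genes.

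Matrix genes fell unevenly. Of 48 matrix and collagen-processing genes 9 fell (3 without D105 replicate 1 and 4 without D135 replicate 2), and of 26 collagen chains 4. TNC, tenascin C, was at 14.8, 9.94 and 9.21 FPKM at D105 and 1.22, 3.02 and 3.39 FPKM at D135. LOXL2, a collagen cross-linking enzyme, was at 25.3, 22.5 and 20.3 FPKM at D105 and 7.01, 6.35 and 9.7 FPKM at D135. FN1, fibronectin, was at 143, 166 and 139 FPKM at D105 and 58.8, 60.5 and 74.9 FPKM at D135. In all 3 the highest D135 library was below the lowest D105 library. The call of TNC after scaling was lost without D105 replicate 1, and that of FN1 without any single D105 library, D135 replicate 1 or D135 replicate 2. COL21A1, a collagen associated with fibrils, was at 41.9, 30.4 and 37.2 FPKM at D105 and 7.8, 6.74 and 10.2 FPKM at D135. COL18A1, a collagen of basement membranes, was at 13.9, 9.69 and 10.5 FPKM at D105 and 3.26, 2.62 and 3.06 FPKM at D135. COL1A2 was at 344, 684 and 1341 FPKM at D135, so its groups overlapped and it was not called (limma adjusted p = 0.482). Without D135 replicate 2, 6 collagen chains were lower as deposited instead of 11. LAMA2, the laminin chain of the muscle basement membrane, was at 43.8, 35.3 and 48.1 FPKM at D105 and 28.3, 28.3 and 27.7 FPKM at D135, lower as deposited only (limma adjusted p = 0.00729, and 0.59 after scaling).

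For the general machinery of RNA and protein the counts turned on the scaling. Of 45 spliceosome and hnRNP genes 29 were lower as deposited and 1 fell in both scalings, with medians of -0.49 and -0.05. That gene, HNRNPA1, which binds nuclear RNA, was at 106, 111 and 98.6 FPKM at D105 and 53.6, 61.3 and 62.2 FPKM at D135, and its call after scaling was lost when any single library was left out. Of 74 cytosolic ribosomal proteins, 3 were lower and only RPS15 was higher as deposited, and 26 were higher after scaling, with medians of -0.03 and 0.43. After quantile normalization 11 were lower and 1 higher. As deposited 1 was lower without D85 replicate 3, any single D105 library, D135 replicate 1 or D135 replicate 3. RPL3, part of the large subunit, was lower as deposited only, at 523, 473 and 435 FPKM at D105 and 233, 281 and 250.0 FPKM at D135. Of 37 proteasome genes 1 rose, PSMB6, whose call was lost without D85 replicate 2 or any library of the later days other than D105 replicate 2. As deposited 4 were lower, or 0 without D135 replicate 1, whereas 12 were higher after scaling. Of 27 chaperone genes 5 were lower as deposited (3 to 8 with each library left out, fewest without D105 replicate 1) and 0 after scaling. The share lower as deposited was under the 35.0% of all loci. HSPA5 and HSP90B1, chaperones of the endoplasmic reticulum, were lower as deposited only (limma adjusted p = 0.0107 and 0.0048 as deposited, 0.172 and 0.097 after scaling).

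Of 34 chromatin genes 7 fell. The histone variant H2AX, matched by its description (H2AFX), was at 42.7, 26 and 39.8 FPKM at D105 and 6.71, 8.07 and 11.5 FPKM at D135. LMNB1, a lamin of the nuclear envelope, was at 18.4, 15.4 and 16.8 FPKM at D105 and 4.49, 5.35 and 6.84 FPKM at D135. HELLS, a remodeller tied to DNA methylation, was at 2.48, 3.63 and 2.94 FPKM at D105 and 0.77, 0.937 and 1.04 FPKM at D135. All 3 were lower in every D135 library than in every D105 library. CELF2, a splicing regulator, was at 17, 16.7 and 17.2 FPKM at D105 and 7.97, 8.71 and 8.74 FPKM at D135, with a narrow spread on both days. Among 28 ubiquitin ligase and autophagy genes 4 rose, all 4 of them muscle-expressed TRIM or KLHL genes. KLHL41, which stabilises nebulin, was at 76.1, 65.9 and 82.9 FPKM at D105 and 162, 467 and 577 FPKM at D135. KLHL33, another kelch protein, was at 2.39, 3.78 and 3.61 FPKM at D105 and 10.6, 9.68 and 9.09 FPKM at D135.

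Ratios between paralogs compare genes within a library and do not depend on the scaling other than through the pseudocount of 1. The order within a pair was fixed, for many pairs as the mature or muscle form over the other, for some as fast over slow or otherwise. Of 35 pairs with both genes in the table, this ratio was higher at D135 in 20 without overlap between the days, lower in 3 and overlapping in 12. How often ratios of other gene pairs differ without overlap was not computed. The pairs were chosen with earlier results of these data known, so the counts describe these pairs only. CHRNE, the adult acetylcholine receptor subunit, had a log2 ratio to CHRNG, the fetal subunit, of -1.98, -0.75 and -1.06 at D105 and 0.29, 0.86 and 0.14 at D135. It was thus the lower of the pair in each D105 library and the higher in each D135 library. PHKA1, the muscle phosphorylase kinase subunit, had a log2 ratio to PHKA2, the liver form, of -0.71, 0.07 and -0.38 at D105 and 1.01, 2.41 and 2.29 at D135. The log2 ratio of EEF1A2, the elongation factor of mature muscle, to EEF1A1, the widespread form, had a mean of -2.82 at D105 and 0.45 at D135. RPL3L, the striated-muscle form of RPL3, stayed below it, with a log2 ratio of -5.50, -5.20 and -5.42 at D105 and -1.94, -2.57 and -2.54 at D135. Some muscle forms that were ahead at D105 were further ahead at D135. For SLC25A4, the muscle ADP/ATP carrier, over SLC25A5 the log2 ratio was 5.16, 5.08 and 4.89 at D105 and 7.56, 6.91 and 7.04 at D135. For COX6A2 over COX6A1 it was 1.07, 1.59 and 1.41 at D105 and 3.59, 2.98 and 3.19 at D135. For RYR1, the adult release channel, over RYR3 it was 2.83, 3.54 and 2.61 at D105 and 4.99, 5.17 and 5.14 at D135. The mean log2 ratio of EZH1 to EZH2, methyltransferases of resting and dividing cells, was 1.11 at D105 and 1.88 at D135, and that of FBN1 to the fetal fibrillin FBN2 was 2.72 and 3.54. The 3 lower ratios were PPP1R3A to PPP1R3C, SMARCD3 to SMARCD1, with a locus that joins several genes, and IGF2BP2 to IGF2BP1. The ratio IGF2BP2 to IGF2BP1, whose second gene was too low to be tested, changed by -0.81 with the pseudocount of 1 but by -0.02 with a pseudocount of 0.1. ATP2A1 to ATP2A2, the fast to the slow calcium pump, changed by -0.05 in the mean, and TNNI2 to TNNI1, the fast to the slow troponin I, by -0.46, and both overlapped between the days.

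**Figure D4:**
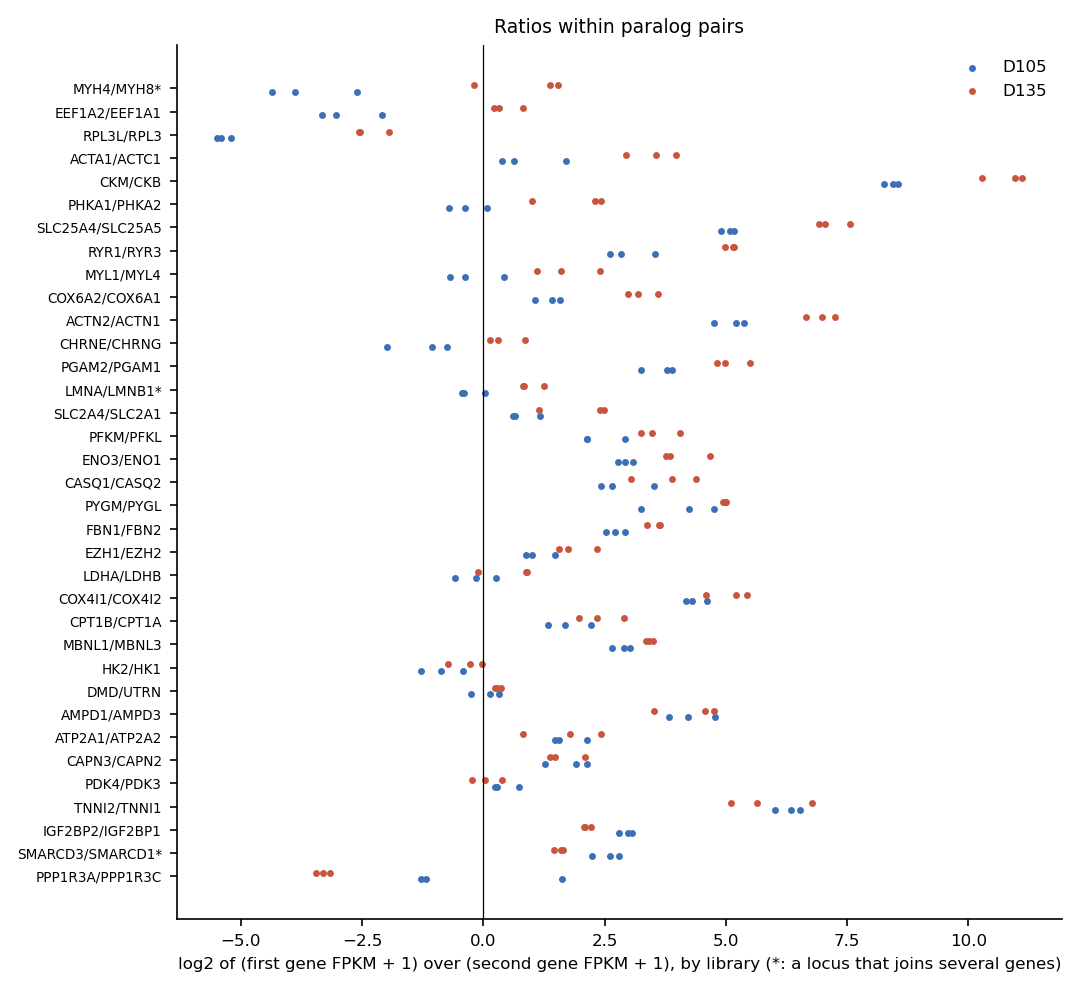
Log2 ratio of FPKM + 1 between the genes of 35 paralog pairs (x axis) in each library of D105 (blue) and D135 (red), ordered by the change of the mean; each point is a library and an asterisk marks a pair with a locus that joins several genes. In 20 pairs all red points lie right of all blue points, and in 3 all lie left of them.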

How the data were processed

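RNA was sequenced from longissimus dorsi of sheep fetuses at 3 ages with 3 libraries each, taken as replicates from the labels' titles. Per the labels' protocols, frozen muscle was extracted with Trizol and sequenced as mRNA. Illumina HiSeq instruments of 2 models are named in the design text, with no library assigned to either, so the instrument and the day cannot be told apart. Reads were processed with cutadapt, Bowtie2 and TopHat2 per the submitters' processing notes, which give no versions here. For the genome build and the program behind FPKM, the sources used here give no name. The deposited values are FPKM per locus and library, made by the authors, so the depth in reads is unknown and no count test was possible.

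From these, log2(FPKM + 1) was computed here for loci with at least 1 FPKM in at least 3 of the 9 libraries, and fitted with limma 3.58.1 (R 4.3.3; lmFit, contrasts, eBayes with trend) over all 9 libraries, in a two-sided test whose p-values were adjusted by Benjamini-Hochberg over all tested loci and called under 0.05. The same fit was run after median-of-ratios scaling (factors from 16950 loci above 0 in every library). Only the fit without scaling was run on simulated data, with as many loci raised as lowered. That run therefore does not bear on the scaling. Alternatives were quantile normalization, totals without the top 50 loci, other pseudocounts and filters, library weights, a replicate block and leaving out each library.

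Symbols came from the table and, for 476 loci, from RefSeq (assembly ARS-UI_Ramb_v3.0). Of 1461 list entries 1411 were matched, 38 by description and 48 to a locus that joins several genes. Named genes were the 12 largest changes in each direction that met the filter, the 6 smallest adjusted p in each direction, the 10 highest genes of each day, and members of lists and paralog pairs. Members, lists and pairs were chosen with earlier results of these data known. A few list and pair members are not reported here. No sequences were used, and promoter motifs were not analysed here.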

Additional observations from a re-analysis of the deposited data

How the results depend on the processing

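Scaling moved the counts most. As deposited, 585 loci were called higher and 4579 lower with a median log2 change of -0.334. Median-of-ratios scaling gave 1389, 911 and 0.0127, and quantile normalization gave 986, 1072 and -0.0364. Requiring at least 5 FPKM in 3 libraries left 7045 loci tested instead of 13086, of which 451 were called higher and 2820 lower. The median was -0.2613 with totals taken without the top 50 loci, -0.4275 with a pseudocount of 0.1, -0.3797 with 0.5, and -0.1424 without a filter on low values. With each library left out in turn, 454 to 578 loci were called higher and 3002 to 4514 lower as deposited, fewest without D135 replicate 2. After scaling the ranges were 885 to 1288 higher and 518 to 834 lower, again fewest without D135 replicate 2.

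The counts of loci that differed between the intervals, 10 and 36, were the least stable. The higher count was 2 among the 7045 loci at 5 FPKM or more, 20 with library weights, and 4 to 23 with a library left out. The lower count was 5 after median-of-ratios scaling, 12 after quantile normalization, 20 with totals without the top 50 loci, 144 with library weights and 68 over loci with a reference transcript, an alternative chosen after seeing the data, and 4 to 47 with a library left out.

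Replicate numbers recur on each day, but same-numbered D105 and D135 libraries did not deviate together (correlation of deviations across loci 0.06, 0.04 and -0.05), so the numbers were not read as pairs. With the replicate number as a block, 526 loci were called higher and 3794 lower as deposited, 1036 and 592 after scaling, and 2 and 1 between the intervals, where TMEM159 was no longer called.

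Of the named genes called as deposited, 121 kept the call in every one of the 24 alternatives in which they were tested. A gene outside an alternative's filter, such as ZBTB16 at 5 FPKM or more, was not tested there. The other 25 lost the call in at least 1, of which 12 lost it after median-of-ratios scaling, and 0 changed direction. Of 134 named genes called in both scalings, 112 kept both calls with each library left out in turn, and 18 lost the call after scaling without at least 1 library. TNNC2, not called as deposited, was lower after quantile normalization (log2 change -0.57, limma adjusted p = 0.0086). FPKM gives no read depth, so no counting interval could be set.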

Other observations

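Outside the gene lists, 224 loci rose and 449 fell in both scalings without overlap of the days. These counts take loci with a symbol of their own and a mean of at least 3 FPKM over the higher day. How many tested loci met those conditions was not counted, so no share can be given. Of all tested loci, without those conditions, 4.46% rose and 6.96% fell. The genes and families named here were chosen after their values were seen. Several of the genes that rose are known from mature muscle. AQP7, a channel for water and glycerol, was at 1.18, 5.18 and 1.86 FPKM at D105 and 19.4, 23.6 and 22.3 FPKM at D135. CA3, the carbonic anhydrase of muscle, was at 351, 235 and 127 FPKM at D105 and 687, 691 and 916 FPKM at D135. FHL1, a LIM protein of the sarcomere, was at 86.4, 105 and 50. FPKM at D105 and 201, 215 and 301 FPKM at D135. The days did not overlap for any of these. SMYD2, a protein methyltransferase that acts on chaperones of titin, was at 11.4, 10.9 and 8.33 FPKM at D105 and 24.7, 35 and 30. FPKM at D135. TUBA8, an alpha-tubulin of muscle and testis, was at 1.27, 3.58 and 2.23 FPKM at D105 and 14.5, 15.9 and 12.7 FPKM at D135. TUBB6, a beta-tubulin of immature and regenerating fibres, was at 37.6, 20.6 and 30.7 FPKM at D105 and 7.97, 9.02 and 1.33 FPKM at D135 and fell, but its call after scaling was lost without any single library other than D135 replicate 2 or 3. ESR1, the oestrogen receptor, was at 1.43, 3.55 and 2.06 FPKM at D105 and 7.73, 6.39 and 7.22 FPKM at D135 and rose (limma adjusted p = 0.00356). AQP4, the water channel of the fast fibre membrane, was at 1.17, 1.29 and 0.673 FPKM at D105 and 3.67, 4.74 and 3.5 FPKM at D135 and rose.

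Among the genes that fell were receptors and positional genes. PIEZO2, a mechanically gated channel, was at 13.1, 11.6 and 12.3 FPKM at D105 and 2.12, 2.93 and 3.22 FPKM at D135. RET, the receptor of glial-derived growth factors, was at 14.1, 12.8 and 14.6 FPKM at D105 and 4.72, 2.67 and 4.17 FPKM at D135. ASPN, the small matrix proteoglycan asporin, was at 29.9, 54.8 and 38.6 FPKM at D105 and 8.43, 9.75 and 13.1 FPKM at D135. All D135 libraries were below all D105 libraries for these genes. DBN1, the actin-binding protein drebrin, was at 47.7, 36.8 and 42.8 FPKM at D105 and 13.8, 14.2 and 18.1 FPKM at D135. HOXA9, a homeobox gene of trunk and limb position, was at 3.79, 2.91 and 5.75 FPKM at D105 and 0.0705, 0.501 and 0.206 FPKM at D135.

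Guidance and adhesion families were lower or not called as deposited. Of 26 tested semaphorins and plexins, which guide axons and vessels, 17 were lower as deposited and 6 after scaling, and 0 were higher (median log2 change -0.63 as deposited). Of all loci, 35.0% were lower as deposited and 6.96% after scaling. Of 19 cadherins and protocadherins 11 were lower as deposited and 7 after scaling (median -0.70). Of 15 ephrins and ephrin receptors 7 and 4 were lower, and of 20 ADAMTS metalloproteinases 10 and 5. Counts of similar size as deposited were not particular to these families. Of 26 TBC1D genes 16 were lower as deposited and 1 after scaling, and of 26 kinesins 18 and 11. Numbered zinc finger genes had a median near that of all loci, with 70 of 238 lower as deposited, 7 after scaling, and a median of -0.36.

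In lists not described above, 3 of 25 mitochondrial import and dynamics genes rose in both scalings (0 without D105 replicate 2 or D135 replicate 2, and 1 without D135 replicate 1). In the dystrophin complex 2 of 14 rose, as deposited 1 without D135 replicate 2. Of 22 basement membrane genes 2 fell in both scalings (1 without any single library other than D135 replicate 1) and 12 were lower as deposited, or 6 without D135 replicate 2. Of 38 translation and ribosome-making genes 10 were lower as deposited, 6 without D135 replicate 1, and 0 after scaling. The share lower as deposited was under the 35.0% of all loci.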
